A study of Mus musculus with 12 samples.

Results

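Matricellular proteins are secreted into the extracellular matrix, where they bind cell-surface receptors, collagen and growth factors. They are best known as modulators of how cells attach, move and respond during tissue growth and repair, and many of them are scarce in resting adult tissue and return after injury. In the periodontium, the tissue that holds a tooth in its socket, periostin and the tenascins are known from the periodontal ligament and the gingival connective tissue, and osteopontin from bone and other mineralized surfaces. The 9 genes described here, of 21965 in the count table, were taken as a set by name: the ligament and gingival matrix genes Postn, Tnc, Tnn and Aspn, the collagen-binding Sparc, the bone-associated Spp1, the thrombospondins Thbs1 and Thbs2, and the fibronectin gene Fn1. All 9 were matched by symbol to Ensembl identifiers and all 9 passed the filter on low counts. They were followed across WT naive, WT ligated, CybbKO naive and CybbKO ligated gingiva.

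RNA came from gingival tissue of 12 mice, 3 per group, in a design that matched age and sex. WT mice were C57BL/6 in the labels and C57BL/6J in the methods, and CybbKO mice (Cybb-/-) carried a whole-body disruption of Cybb, which encodes the catalytic subunit of the phagocyte NADPH oxidase Nox2. Ligated mice carried a silk ligature around a maxillary molar for 8 days, a model in which plaque collects at the tooth and bone is lost, and naive mice had none. All mice were under 12 weeks of age according to the labels. A library is bulk RNA from a piece of gingiva, so more cells of a type and more RNA per cell cannot be told apart.

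The libraries held from 27958819 to 42613423 gene-assigned reads. Cybb itself went against its label: it had 5.06 ± 0.76 CPM (the count scaled to library size after TMM normalization, SD, n = 3) in WT naive and 47.9 ± 7.56 CPM in CybbKO naive libraries, and 12.1 ± 3.43 against 57.0 ± 6.31 CPM in ligated ones, and edgeR's quasi-likelihood test called it higher in both conditions (Benjamini-Hochberg adjusted p = 0.000128 and 0.00420). Reads on the gene do not show whether the RNA encodes a working protein, so "CybbKO" below names the libraries as labelled. Markers of gingiva were present: epithelial markers summed to between 58100 and 112747 CPM, and fibroblast markers to between 803 and 9314 CPM. The library CybbKO ligated replicate 2 stood apart from the others of its group for the genes described here, and several of the results that rest on it are also given without it.

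The promoter windows of 7 of the 9 genes were found in the RefSeq table for GRCm38.p6, and Thbs1 and Fn1 were not in it. Windows of 4 genes are shown as the 250 bases before the start site, 5′ to 3′ on the strand of the gene, because these genes mark the ends of the response described below (the largest and the smallest rise), the most abundant ligament gene, and the other tenascin. Capitals mark 5 motifs searched by letters. These were the TATA box TATANA starting 20 to 40 bases before the start on the strand of the gene, and the AP-1 motif TGANTCA, the RUNX motif TGTGGT, the TEAD motif GGAATG and the SMAD motif GTCTAGAC on either strand.
Postn, chr3:54360857-54361106, plus strand: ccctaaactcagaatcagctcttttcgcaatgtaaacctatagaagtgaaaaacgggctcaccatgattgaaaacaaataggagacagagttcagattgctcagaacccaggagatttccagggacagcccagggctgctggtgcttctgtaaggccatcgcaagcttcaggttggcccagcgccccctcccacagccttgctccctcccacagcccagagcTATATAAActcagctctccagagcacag
Spp1, chr5:104434861-104435110, plus strand: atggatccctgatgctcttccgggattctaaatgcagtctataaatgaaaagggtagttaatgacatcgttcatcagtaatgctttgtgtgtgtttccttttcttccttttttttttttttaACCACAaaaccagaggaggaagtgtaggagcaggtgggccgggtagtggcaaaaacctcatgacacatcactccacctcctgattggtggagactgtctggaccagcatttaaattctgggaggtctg
Tnc, chr4:64047016-64047265, minus strand: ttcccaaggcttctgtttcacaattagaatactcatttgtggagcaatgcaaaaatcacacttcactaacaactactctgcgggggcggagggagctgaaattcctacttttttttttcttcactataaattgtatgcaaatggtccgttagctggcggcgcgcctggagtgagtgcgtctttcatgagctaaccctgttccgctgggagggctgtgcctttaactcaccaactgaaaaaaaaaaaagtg
Tnn, chr1:160153576-160153825, minus strand: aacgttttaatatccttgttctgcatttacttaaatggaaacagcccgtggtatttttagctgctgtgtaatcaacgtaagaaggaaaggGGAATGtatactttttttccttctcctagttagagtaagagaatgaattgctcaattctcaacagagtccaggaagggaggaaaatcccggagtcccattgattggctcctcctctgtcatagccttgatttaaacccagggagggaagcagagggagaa
The Postn window held overlapping TATA matches 28 and 26 bases before the start. Of 32841 windows of this length, 3.11% have at least 1 TATA match, and overlapping ones were not counted. The Spp1 window held the RUNX letters on the opposite strand, 128 bases before the start, as 14% of windows do, and the Tnn window held the TEAD letters 160 bases before the start, as 12.6% do. The Tnc window held none of the 5. Among the other windows, those of Sparc, Thbs2 and Aspn, no motif was found. The AP-1 letters, in 6.75% of windows, and the SMAD letters, in 0.167%, were in none of the 7. A match is a run of letters and not a binding site.

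All 9 genes were higher in ligated than in naive gingiva when the genotypes were averaged, by between 1.40-fold for Tnc and 23.9-fold for Spp1 (14.0-fold without WT ligated replicate 3). Under this test, which averages the ligature effect over the genotypes, 14.7% of the 15046 genes tested were called higher at an adjusted p under 0.05, against 9 of 9 here. With each of the 12 libraries left out in turn, Tnc was called in 3 of 12 fits (adjusted p up to 0.0812), Aspn in 6 (up to 0.0691), Tnn in 11 (up to 0.0517, without CybbKO ligated replicate 1) and the other 6 genes in 12. With scaling by library size only, 2628 genes were called higher and 726 lower in place of 2215 and 1453, and the same 9 genes were called. The median log2 fold change of the 9 genes was 1.57, and that of all tested genes was -0.03. DESeq2, run as a second method, also called 9 of 9, where it called 15.3% of its tested genes higher. The 6 ligated libraries lay above all 6 naive libraries for 5 of the 9 genes, namely Postn, Spp1, Sparc, Thbs2 and Fn1, a separation found for 6.73% of tested genes. With CybbKO ligated replicate 2 left out, Tnc (lowest ligated 199 against highest naive 168 CPM), Tnn (99.4 against 83.5) and Aspn (121 against 115) separated too. Thbs1 did not, and the share of all genes without that library was not counted.

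**Figure D1:**
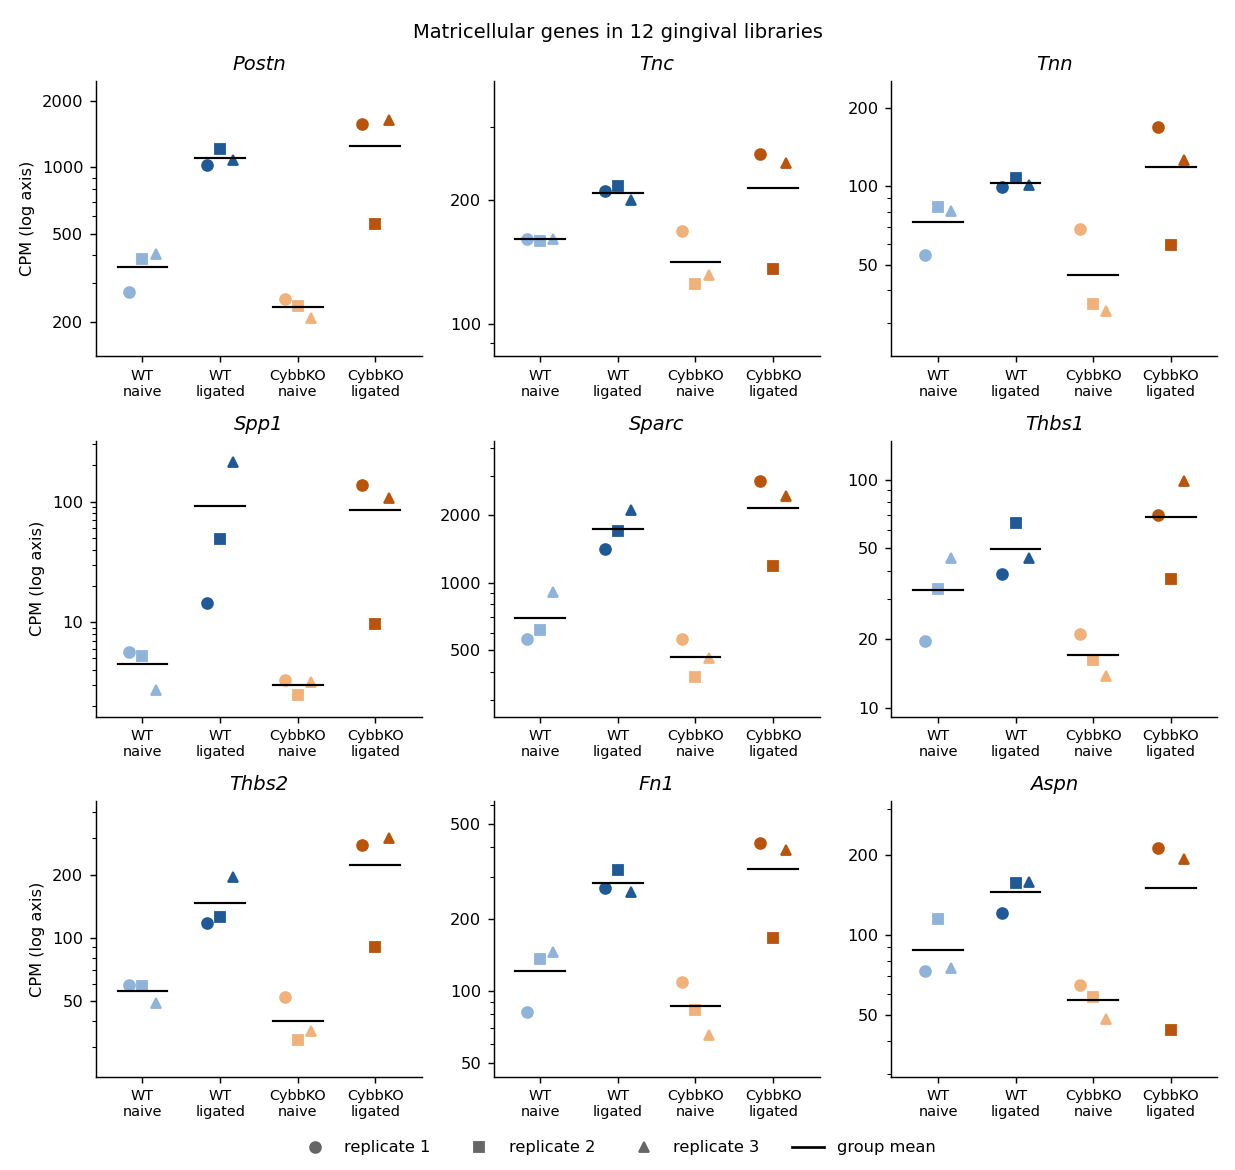
Expression of the 9 genes in each of the 12 libraries, in CPM on a log axis; each symbol is 1 library, its shape gives the replicate number, and the black line is the mean of the 3 libraries of a group. Ligated libraries sit above naive ones for most genes, Spp1 spreads most among ligated libraries (9.71 to 212 CPM), and the square of the CybbKO ligated group (replicate 2) is the lowest ligated library in all 9 panels.

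Per kilobase of transcript, which allows genes to be compared, Sparc was the most abundant of the 9 in every group. Its mean level in WT naive gingiva was 303 CPM per kilobase of its principal transcript, followed by Postn at 111, Aspn at 37.7, Tnc at 22.6, Fn1 at 14.6, Tnn at 12.5, Thbs2 at 9.42, Thbs1 at 5.60 and Spp1 at 3.01. In WT ligated gingiva Sparc stood at 755 and Postn at 346 CPM per kilobase. The mean of Spp1, lowest of the 9 in WT naive, was 60.9, next to Aspn at 62.6, but its libraries stood at 9.48, 32.5 and 141 CPM per kilobase, and without WT ligated replicate 3 its mean lay between those of Thbs2 at 20.7 and Tnc at 29.9. Fn1 at 34.0, Tnc at 29.3, Thbs2 at 24.8, Tnn at 17.7 and Thbs1 at 8.49 CPM per kilobase followed. The length used matters most for Postn, whose annotated exons together span 8702 bases against 3189 in the principal transcript: over all exons it stood at 40.7 CPM per kilobase in WT naive and 127 in WT ligated gingiva, still second. The counts are per gene and do not separate the splice forms of Postn, Tnc or Fn1.

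Postn encodes periostin, which binds collagen and integrins and organizes collagen fibres in the periodontal ligament. It had 271, 385 and 407 CPM in the WT naive libraries and 1021, 1209 and 1083 CPM in the WT ligated ones. In CybbKO mice the levels were 253, 235 and 209 CPM in naive and 1571, 552 and 1643 CPM in ligated gingiva. Every ligated library was above every naive one, and CybbKO ligated replicate 2 was the lowest of the ligated libraries by a wide margin. Postn rose 3.12-fold in WT (log2 fold change 1.64, SE 0.33, edgeR adjusted p = 0.0264) and 5.40-fold in CybbKO gingiva (2.43, SE 0.34, adjusted p = 0.00210). It lies on chromosome 3 at 54361109-54391037 (plus strand) of GRCm38, the build of all positions here.

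Fn1 encodes fibronectin, a matrix glycoprotein that binds periostin and tenascin-C and that cells grip through integrins. It lies on chromosome 1 at 71585520-71653200 (minus strand). Its libraries had 81.4, 136 and 146 CPM in WT naive, 269, 320 and 260 in WT ligated, 109, 83.6 and 65.7 in CybbKO naive, and 414, 166 and 389 CPM in CybbKO ligated gingiva. The naive and ligated libraries did not overlap, although the lowest ligated library (CybbKO ligated replicate 2) was close to the highest naive one. Fn1 rose 3.75-fold in CybbKO gingiva (log2 fold change 1.91, SE 0.33, edgeR adjusted p = 0.00452). In WT gingiva its log2 fold change was 1.22 (SE 0.32), and the adjusted p of 0.0633 missed the threshold under edgeR.

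Sparc encodes osteonectin, a collagen- and calcium-binding glycoprotein needed for orderly collagen fibril assembly, and lies on chromosome 11 at 55394500-55423183 (minus strand). It was counted at 561, 618 and 912 CPM in WT naive and 1406, 1692 and 2109 CPM in WT ligated libraries, and at 562, 380 and 462 CPM in CybbKO naive and 2848, 1183 and 2441 CPM in CybbKO ligated ones. The groups did not overlap in either genotype. Sparc rose 2.49-fold in WT (log2 fold change 1.32, SE 0.31, edgeR adjusted p = 0.0444) and 4.61-fold in CybbKO gingiva (2.20, SE 0.32, adjusted p = 0.00238).

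Spp1 encodes osteopontin, a phosphoprotein of bone matrix that osteoclasts bind and that macrophages also make. The gene lies on chromosome 5 at 104435118-104441050 (plus strand). It had 5.63, 5.22 and 2.73 CPM in WT naive and 14.3, 49.0 and 212 CPM in WT ligated libraries. The CybbKO libraries had 3.32, 2.47 and 3.20 CPM in naive and 138, 9.71 and 107 CPM in ligated gingiva. No ligated library overlapped a naive one, yet the highest ligated library exceeded the lowest 14.8-fold in WT and 14.3-fold in CybbKO mice, which was the widest spread of the 9 genes. The rise was 20.2-fold in WT (log2 fold change 4.33, SE 1.02, edgeR adjusted p = 0.0449) and 28.3-fold in CybbKO gingiva (4.82, SE 1.05, adjusted p = 0.0125). Without WT ligated replicate 3 the log2 fold change in WT fell to 2.80 and was not called.

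Thbs1 and Thbs2 encode thrombospondin-1 and thrombospondin-2, trimeric proteins that restrain new vessel growth. Thrombospondin-1 is also stored in platelets and can activate latent TGF-beta, and thrombospondin-2 is made largely by fibroblasts. Thbs1 lies on chromosome 2 at 118111876-118127133 (plus strand) and Thbs2 on chromosome 17 at 14665500-14694235 (minus strand). Thbs2 had 59.3, 58.8 and 48.6 CPM in WT naive, 118, 126 and 195 in WT ligated, 52.3, 32.5 and 35.7 in CybbKO naive, and 277, 90.5 and 299 CPM in CybbKO ligated libraries, with no overlap between ligated and naive. It rose 5.53-fold in CybbKO gingiva (log2 fold change 2.47, SE 0.39, edgeR adjusted p = 0.00292), and its WT log2 fold change of 1.40 (SE 0.37) had an adjusted p of 0.0648.

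In WT libraries Thbs1 had 19.5, 33.1 and 45.6 CPM in naive and 38.8, 64.8 and 45.4 CPM in ligated gingiva. These groups overlapped, and the log2 fold change of 0.60 (SE 0.37, edgeR adjusted p = 0.392) was not called. In CybbKO gingiva Thbs1 had 21.1, 16.1 and 13.7 CPM in naive and 70.0, 36.6 and 98.8 CPM in ligated libraries, which did not overlap, and it rose 4.03-fold (log2 fold change 2.01, SE 0.38, adjusted p = 0.00638). The difference between these 2 ligature effects is taken up with the genotype comparisons.

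The tenascins and asporin showed the smallest differences over both genotypes. Tnc encodes tenascin-C, a hexameric protein of healing wounds and tendon. It lies on chromosome 4 at 63959785-64047015 (minus strand) and had 161, 159 and 161 CPM in WT naive against 209, 215 and 199 CPM in WT ligated libraries. These 2 groups were the tightest of the study for any of the 9 genes and did not overlap. In CybbKO gingiva Tnc had 168, 125 and 131 CPM in naive and 258, 136 and 245 CPM in ligated libraries, so that CybbKO ligated replicate 2 fell inside the naive range. Its log2 fold changes of 0.38 (SE 0.20) in WT and 0.59 (SE 0.20) in CybbKO gingiva had edgeR adjusted p of 0.326 and 0.0779. Over both genotypes Tnc rose by 0.48 (SE 0.14, adjusted p = 0.0294), a call kept in 3 of 12 fits with a library left out.

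Tnn encodes tenascin-N, also called tenascin-W, a tenascin of bone and periodontal ligament, and lies on chromosome 1 at 160085029-160153580 (minus strand). Its levels were 54.3, 83.5 and 80.6 CPM in WT naive, 99.4, 108 and 101 in WT ligated, 68.8, 35.5 and 33.4 in CybbKO naive, and 169, 59.3 and 126 CPM in CybbKO ligated libraries. It rose 2.58-fold in CybbKO gingiva (log2 fold change 1.36, SE 0.36, edgeR adjusted p = 0.0276), where the 2 groups overlapped in CybbKO ligated replicate 2 and where the call was kept in 2 of 6 fits with a library of that genotype left out (adjusted p up to 0.128). It was lost without CybbKO ligated replicate 1 or 3 or CybbKO naive replicate 2 or 3. Its WT log2 fold change was 0.50 (SE 0.35, adjusted p = 0.465) although those groups did not overlap. Aspn encodes asporin, a leucine-rich proteoglycan of the periodontal ligament that restrains mineral deposition, from chromosome 13 at 49544443-49567565 (plus strand). It had 73.5, 115 and 75.2 CPM in WT naive and 121, 158 and 158 CPM in WT ligated libraries. In CybbKO mice Aspn stood at 64.7, 58.2 and 48.4 CPM in naive and 213, 43.9 and 193 CPM in ligated gingiva, so that replicate 2 was below all 3 naive libraries. Its log2 fold changes were 0.73 (SE 0.43, adjusted p = 0.369) in WT and 1.39 (SE 0.43, adjusted p = 0.0548) in CybbKO gingiva.

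Counted by genotype, edgeR called 3 of the 9 genes higher in WT ligated gingiva (Postn, Sparc and Spp1), where 2.31% of tested genes were called higher. It called 7 of 9 in CybbKO gingiva (Tnc and Aspn did not pass), where 9.95% were. None was called lower. The ligated libraries lay wholly above the naive ones for 8 of 9 genes in WT, as for 13.3% of tested genes, and for 6 of 9 in CybbKO gingiva, as for 18.5%. The overlap of Tnc, Tnn and Aspn in CybbKO gingiva came from CybbKO ligated replicate 2 alone, and the share of all genes without it was not counted. DESeq2 called 5 of 9 in WT, where it called 5.64% of its genes higher, with Thbs2 and Fn1 as the further ones, and 8 of 9 in CybbKO gingiva, where it called 12%. Leaving out CybbKO ligated replicate 2 brought the edgeR count in CybbKO gingiva to 9 of 9, in a fit that called 13% of its 15172 tested genes higher. With each of the 6 CybbKO libraries left out in turn, Postn, Sparc, Thbs1, Thbs2 and Fn1 were called in 6 of 6 fits, Spp1 in 5 (not without CybbKO naive replicate 2, adjusted p = 0.0555) and Tnn in 2. In WT gingiva the count depended on each library: it was 2 without WT ligated replicate 1 or WT naive replicate 3, and 0 without any one of WT ligated replicates 2 and 3 and WT naive replicates 1 and 2. Postn was called in 2 of these 6 fits and Sparc and Spp1 in 1 each.

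**Figure D2:**
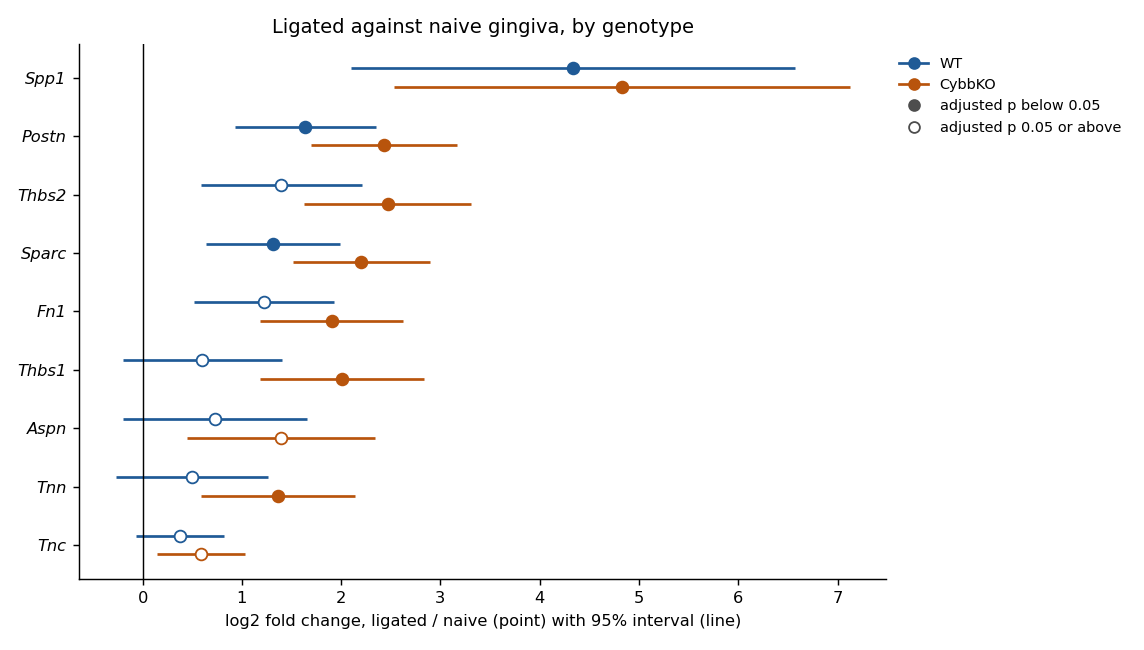
Log2 fold change of ligated over naive gingiva for each gene in WT (blue) and CybbKO (orange) mice, with the 95% interval of the joint edgeR fit; filled circles have an adjusted p under 0.05. All 18 estimates are positive, from 0.38 for Tnc in WT to 4.82 for Spp1 in CybbKO gingiva, and the intervals of the genotypes overlap for every gene.

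The 4 groups fell in the same order for 8 of the 9 genes: CybbKO naive lowest, then WT naive, WT ligated and CybbKO ligated, an order of means that 12.8% of tested genes had. The count in that order was 3 of 9 without CybbKO ligated replicate 1 (Sparc, Thbs1 and Thbs2), 5 without CybbKO ligated replicate 3 and between 7 and 9 without any other library. Spp1 had the ligated groups the other way round. The neighbours within a condition (CybbKO and WT naive, WT and CybbKO ligated) were called different by edgeR for none of the 9 genes after adjustment, and of the steps from WT naive to WT ligated those of Postn, Sparc and Spp1 passed it.

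In naive gingiva all 9 genes had a lower mean in CybbKO than in WT libraries, with a median log2 fold change of -0.60, where 49.5% of all tested genes were below 0 and their median was 0.00. None was called by edgeR or DESeq2. In this comparison 0.00665% of tested genes were called in either direction, that is Cybb alone. The estimates ran from -0.95 for Thbs1 (95% interval -1.76 to -0.14, edgeR adjusted p = 1.00, unadjusted p = 0.0256) to -0.18 for Tnc (-0.62 to 0.26). Thbs1 was the 1 gene of the 9 with an unadjusted p under 0.05. The CybbKO naive libraries lay wholly below the WT naive ones for Postn and Aspn, as they did for 3.03% of tested genes. The fibroblast marker list had 10 of 10 members below 0 here, with a median log2 fold change of -0.60, and its summed level ran from 1275 to 2299 CPM in WT naive and from 803 to 1432 CPM in CybbKO naive libraries. Other lists also lay mostly to 1 side: 5 of 5 smooth muscle and pericyte markers (median -0.82), 10 of 10 macrophage (-0.27), 7 of 7 tested osteoblast (-0.35), 4 of 4 tendon and ligament (-0.46) and 4 of 4 tested mucous gland markers (-2.39) were below 0, and 6 of 6 skeletal muscle (0.63) and 6 of 7 neutrophil markers (0.70) above it, with no call among them. WT naive replicate 3 had the highest smooth muscle and pericyte sum of its group (438 CPM, against 144 and 225) and the highest mucous gland sum (33147 CPM), and without it the median of the 9 genes was -0.56. The platelet sum did not overlap, at 208 to 227 CPM in WT naive and 387 to 447 CPM in CybbKO naive libraries, with 3 of 4 tested markers above 0 (median 0.24). Most of that sum was the 1 gene Ppbp, with means of 205 CPM in WT naive and 400 CPM in CybbKO naive libraries. The means of Itga2b were 10.3 and 11.2 CPM, and those of Pf4 went the other way, at 2.79 and 1.84 CPM. The part of these tissues in the difference was not tested. The estimates come from the same 6 libraries, so 9 of the same sign are not 9 separate observations.

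In ligated gingiva 8 of the 9 estimates were above 0, the exception being Spp1 at -0.11 (95% interval -2.02 to 1.80), with a median log2 fold change of 0.19. Over all tested genes 53.4% were above 0 and the median was 0.01. None of the 9 was called by edgeR or DESeq2 and 0 had an unadjusted p under 0.05, while edgeR called 0.00665% of tested genes, again Cybb alone. The largest estimate was 0.60 for Thbs2 (-0.19 to 1.40, edgeR adjusted p = 1.00). Markers above 0 in this comparison were 7 of 7 for neutrophils (median 1.33), 10 of 10 for fibroblasts (0.27), 9 of 10 for macrophages (0.51), 5 of 5 for smooth muscle and pericytes (0.35), 5 of 5 for endothelium (0.26), 5 of 5 tested for osteoclasts (0.21), 4 of 4 tested for platelets (0.26), 3 of 4 for tendon and ligament (0.23) and 4 of 7 tested for osteoblasts (0.04). Markers below 0 were 5 of 6 for skeletal muscle (-0.18), 3 of 4 tested for mucous gland (-0.22) and 4 of 7 for epithelium (-0.03). No gene of these lists was called, and their part in the estimates of the 9 genes was not tested. The groups overlapped for all 9 genes, whereas 5% of tested genes had every CybbKO ligated library above every WT ligated one. For every gene but Spp1 that overlap came from CybbKO ligated replicate 2, as the other CybbKO ligated libraries lay above all WT ligated ones. The share of all genes that did so without it was not counted. Without CybbKO ligated replicate 2 the estimates were higher for all 9, from 0.28 for Tnc to 0.98 for Thbs2, and the smallest adjusted p was 0.354, for Thbs2. Without CybbKO ligated replicate 1 those of Postn, Tnc, Tnn, Fn1 and Aspn turned below 0, at -0.0088, -0.12, -0.15, -0.028 and -0.30. Those of Postn, Tnc and Aspn did so without CybbKO ligated replicate 3 (-0.058, -0.078 and -0.18), and that of Aspn without WT ligated replicate 1 (-0.077). The estimate of Spp1 turned above 0 without CybbKO ligated replicate 2 (0.42) or WT ligated replicate 3 (1.42).

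**Figure D3:**
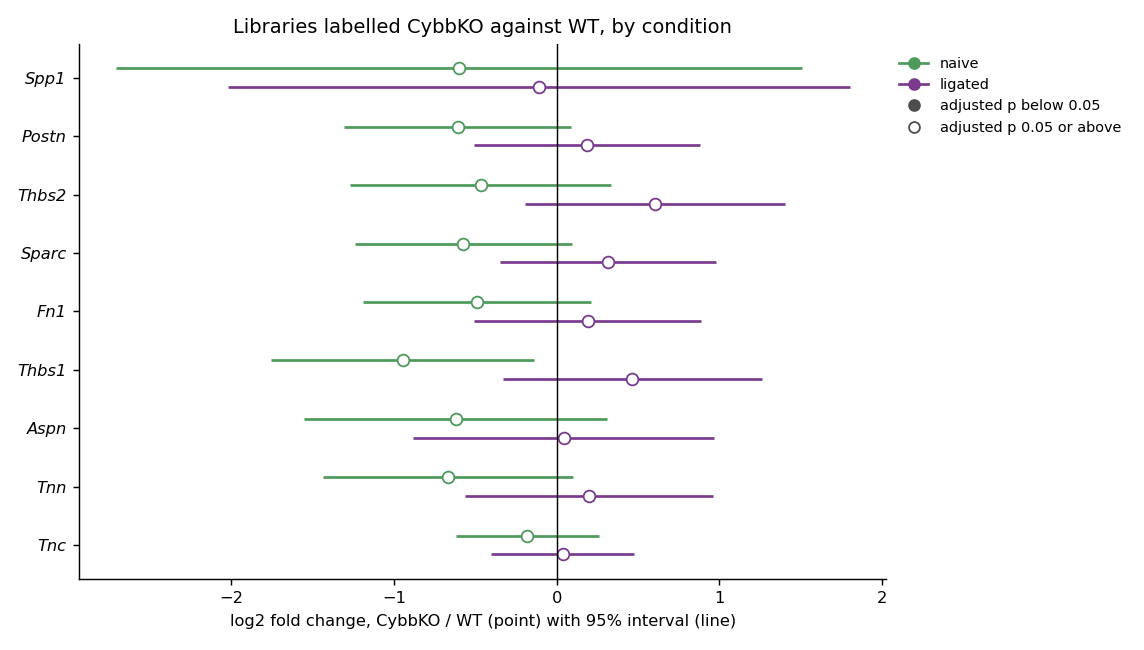
Log2 fold change of CybbKO over WT for each gene in naive (green) and ligated (purple) gingiva, with the 95% interval of the joint edgeR fit; open circles have an adjusted p of 0.05 or above. All 9 naive estimates lie below 0 (from -0.95 to -0.18) and 8 of 9 ligated ones above 0 (from 0.04 to 0.60), and every interval but that of Thbs1 in naive gingiva includes 0.

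The interaction, which is the ligature effect in CybbKO minus that in WT gingiva, was positive for all 9 genes, with a median of 0.79 on the log2 scale against 0.02 over all tested genes, of which 53.3% were positive. No gene of the table was called under edgeR (0% of 15046), though 342 genes passed 0.05 before adjustment. DESeq2 called 0 genes too. Thbs1 had the largest interaction at 1.41 (95% interval 0.28 to 2.55, unadjusted p = 0.0191, edgeR adjusted p = 1.00). Thbs2 followed at 1.07 (-0.06 to 2.20) and Sparc at 0.89 (-0.05 to 1.83), and Tnc was lowest at 0.22 (-0.41 to 0.84). Without CybbKO ligated replicate 2 the median of the 9 genes was 1.15, Thbs1 stood at 1.71 and Thbs2 at 1.44, and the smallest edgeR adjusted p among the 9 was 0.411. The median fell to 0.52 without CybbKO ligated replicate 1, where Tnc stood at 0.055. It fell to 0.55 without CybbKO ligated replicate 3, where Thbs1 stood at 1.05 and Thbs2 at 0.80. The interaction was also positive for 10 of 10 fibroblast (median 0.85), 10 of 10 macrophage (0.84), 5 of 5 smooth muscle and pericyte (1.39), 4 of 4 tested mucous gland (2.14), 7 of 7 neutrophil (0.80), 7 of 7 tested osteoblast (0.44) and 5 of 5 endothelial markers (0.10), and negative for 6 of 6 skeletal muscle markers (-0.75), and their part in that of the 9 genes was not tested. No difference between the genotypes in the ligature effect thus passed the test, although more of the 9 genes were called in CybbKO than in WT gingiva.

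After each group mean was subtracted from the log2 CPM values, the correlation of the 36 pairs of genes over the 12 libraries ran from 0.41 (Spp1 with Thbs1) to 0.94 (Postn with Fn1), with a median of 0.80. Without CybbKO ligated replicate 2 the same pairs ran over 11 libraries from -0.17 (Spp1 with Fn1) to 0.94 (Postn with Fn1), with a median of 0.45. The points share library, dissection and depth, so this is a description. CybbKO ligated replicate 2 was the lowest of the 6 ligated libraries for 9 of 9 genes, below its group mean by 0.59 (Tnc) to 2.43 (Spp1) on the log2 scale. In that library the fibroblast markers summed to 3456 CPM, against 9314 and 8361 in the other CybbKO ligated libraries, the osteoclast markers to 109 against 352 and 291, and the epithelial markers to 103531 against 65012 and 58100 CPM. Its skeletal muscle markers summed to 2615 CPM against 898 and 778. The part of these differences in the levels of the 9 genes was not tested.

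**Figure D4:**
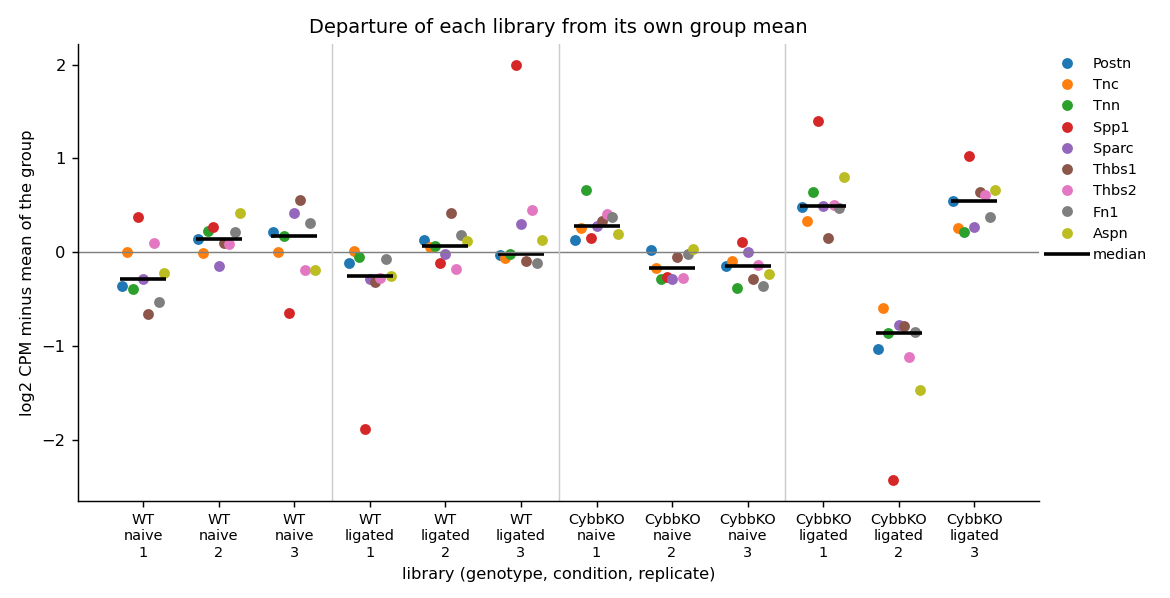
Departure of each library from the mean of its own group, in log2 CPM, for the 9 genes (coloured points) with their median (black bar). The points of CybbKO ligated replicate 2 all lie below 0, from -0.59 to -2.43, those of the other CybbKO ligated libraries all above it, and Spp1 spreads most in both ligated groups.

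The genes whose pattern was most like that of a member over the 12 libraries were taken as the 3 most alike among 15046 tested genes, and Pearson's r is given for the first of them. The libraries fall into ligated and naive ones, which raises r for any gene that responds to the ligature. Postn was most like Cdh11, a cadherin of fibroblasts (r = 0.99), then Col3a1 and Col5a2. Sparc was most like Col1a2, a chain of type I collagen (r = 0.995), then Adamts2, a procollagen protease, and Col3a1. Thbs2 was most like Col12a1, a fibril-associated collagen (r = 0.99), then Clec4n and Gpr183. Fn1 was most like Postn (r = 0.99), then Vcan and Bgn.

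Spp1 was most like Ctsk, the collagen-degrading protease of osteoclasts (r = 0.98), then Atp6v0d2, a subunit of the osteoclast proton pump, and Sema6d. Aspn was most like Gulp1 (r = 0.99), then Omd, another leucine-rich proteoglycan of bone and ligament, and Epb41l2. Tnc was most like Epha3 (r = 0.96), then Fibin and Dpysl3, and Tnn most like Inpp4a (r = 0.96), then Shisal1 and Masp1. Thbs1 was most like Ppfia2 (r = 0.99), then Loxl3 and Arhgef25. With group means removed these correlations were between 0.89 and 0.99 for the 27 pairs of a member and a gene, and without CybbKO ligated replicate 2 between 0.44 (Tnc with Dpysl3) and 0.95 (Sparc with Col3a1).

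Because the fibroblast markers rose with the ligature too, each gene was also set against their sum. All 10 fibroblast markers were called higher over both genotypes (median log2 fold change 1.89), with the smallest p for Col3a1 (5.60-fold), Col5a1 (5.41-fold), Col1a2 (4.43-fold) and Thy1 (2.20-fold), and their sum ran from 803 to 2299 CPM in naive and from 3456 to 9314 CPM in ligated libraries. Most of that sum is collagen, so a share of it is relative to collagen genes that themselves rose. Postn kept about the same share, 20.7 ± 2.7% of the sum in WT naive and 20.1 ± 4.3% in WT ligated gingiva (SD, n = 3), and 22.1 ± 6.2% and 17.5 ± 1.9% in CybbKO gingiva. For 6 of the 9 genes, Tnc, Tnn, Sparc, Thbs1, Fn1 and Aspn, the share was lower in every ligated than in every naive library within each genotype, as it was for 84.7% of tested genes. Tnc went from 9.70 ± 2.8% to 3.81 ± 0.92% in WT. The shares of Postn, Thbs2 and Spp1 overlapped, and the mean share of Spp1 went from 0.29 ± 0.16% to 1.40 ± 1.4% in WT gingiva.

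The sum of the osteoclast markers was 126, 163 and 373 CPM in WT ligated replicates 1 to 3 and 352, 109 and 291 CPM in the CybbKO ligated ones, the same order as Spp1 in both groups. The fibroblast sums (4565, 5304 and 7142 CPM in WT, 9314, 3456 and 8361 in CybbKO), macrophage sums (109, 139 and 142, then 182, 155 and 171) and osteoblast sums (58.6, 77.8 and 131, then 117, 66.4 and 97.3) had that order too, so it does not single out the osteoclast list. All 5 tested osteoclast markers were called higher over both genotypes, with the smallest p for Ctsk (5.46-fold), Ocstamp and Dcstamp, which osteoclasts need to fuse (7.86-fold and 6.84-fold), and Atp6v0d2 (21.5-fold). Naive libraries had few reads of these last 3 (0.0277 to 0.244 CPM of Ocstamp, 0.0609 to 0.404 of Dcstamp and 0.115 to 0.759 of Atp6v0d2), which makes the size of their folds uncertain. Calcr, the calcitonin receptor, was too low to be tested. Macrophage markers, 8 of 10 called higher with the smallest p for Adgre1 (3.02-fold), Csf1r (2.34-fold), C1qb and C1qa, summed to between 109 and 182 CPM in ligated and 69.5 and 99.3 CPM in naive libraries, and 2 of 7 osteoblast markers were called higher (Alpl and Sp7). Which of these cells held the Spp1 RNA was not tested.

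**Figure D5:**
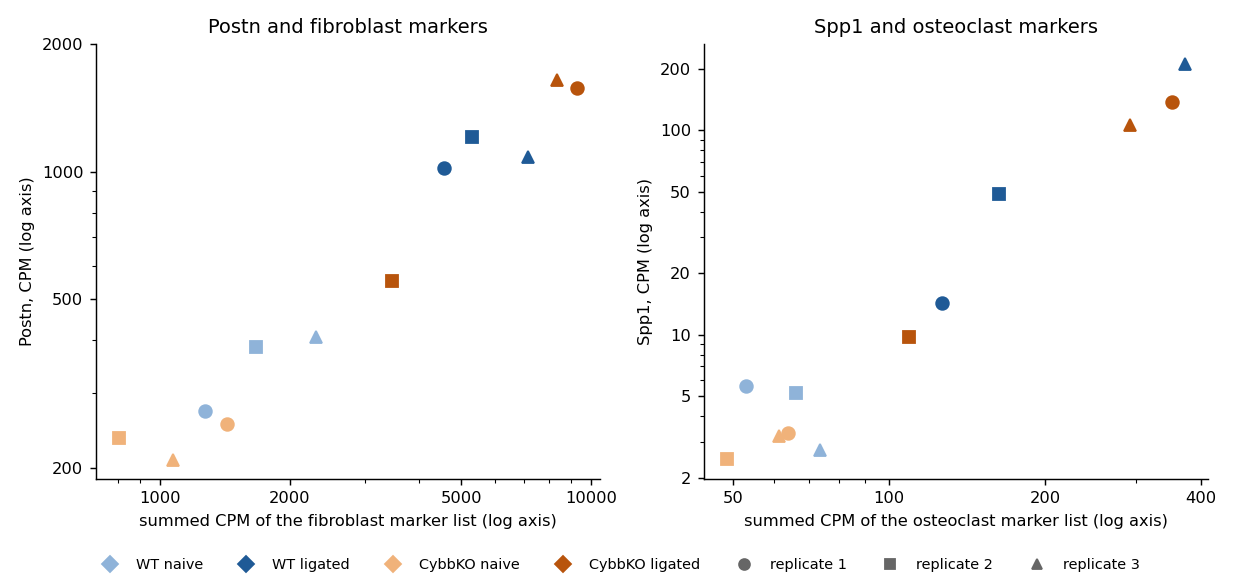
Postn against the summed fibroblast markers (left) and Spp1 against the summed osteoclast markers (right), both in CPM on log axes, with 1 symbol per library coloured by group and shaped by replicate. Postn climbs with the fibroblast sum across all 12 libraries, and Spp1 climbs with the osteoclast sum among ligated libraries (from 9.71 CPM at 109 to 212 CPM at 373), while the naive libraries form a low cluster under 6 CPM.

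Other families of the same matrix were described by lists chosen for their relation to the 9 genes. The count in each is given for ligated against naive gingiva over both genotypes, under edgeR, where 14.7% of tested genes were called higher. Of the 5 other tenascins and thrombospondins, 1 was called higher, the tenascin Tnr, which ran from 0.0305 to 0.115 CPM in naive and from 0.199 to 0.311 CPM in ligated libraries and so was barely expressed. Thbs3, Thbs4, Comp and Tnxb were not called, with log2 fold changes of 0.49, 0.61, 0.58 and -0.36. Rises among the thrombospondins thus passed the test for Thbs1 and Thbs2 and not for the pentameric members Thbs3, Thbs4 and Comp, a difference that was not itself tested.

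Of the 5 tested CCN genes, matricellular growth-factor modulators, 4 were called higher: Ccn4 (3.66-fold, adjusted p = 0.00116), Ccn5 (2.07-fold), Ccn1 (1.47-fold) and Ccn2 (1.56-fold), the last known as connective tissue growth factor. Ccn3 had a log2 fold change of -0.10. Of the 6 tested relatives of Sparc, 4 were called higher, with the smallest p for Fstl1, a secreted glycoprotein of mesenchymal cells (4.61-fold, adjusted p = 0.000171), and followed by Sparcl1 (1.69-fold), Smoc2 (1.52-fold) and Spock1 (2.09-fold). Smoc1 and Spock2 were not called.

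The 2 tested mineralized-tissue relatives of Spp1, Dmp1 and Ibsp, were both called higher (4.86-fold and 5.02-fold, adjusted p = 0.0108 and 0.0113). Dmp1 was under 1 CPM in every naive library (lowest 0.122 CPM), near the limit of counting. Ibsp, bone sialoprotein, ran from 5.90 to 52.8 CPM in WT ligated and from 6.49 to 9.19 CPM in WT naive libraries, which overlap. The dentin gene Dspp had 0 counts in all 12 libraries, and Mepe was too low to test. None of the 4 tested tooth markers was called, and their sum, nearly all of it Odam, ran from 244 to 722 CPM in ligated and 555 to 867 CPM in naive libraries. The sum thus stands for Odam and not for the list. Of its other genes, Amelx had 0 counts in all 12 libraries and Ambn was at most 0.444 CPM.

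Of the 9 tested small leucine-rich proteoglycans, relatives of Aspn, 8 were called higher. Kera, keratocan, went from between 0.0277 and 0.285 CPM in naive to between 1.74 and 9.40 CPM in ligated libraries (adjusted p = 0.000171), and Epyc, epiphycan, from at most 0.183 CPM to between 0.415 and 3.04 CPM (adjusted p = 0.000967). Both were near the limit of counting in naive tissue. Among the abundant ones Bgn, biglycan, rose 2.78-fold and Lum, lumican, 3.51-fold, while Dcn, decorin, had a log2 fold change of 0.18 (SE 0.17, adjusted p = 0.457).

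Of the 15 receptors and binding partners, 8 were called higher, with a median log2 fold change of 0.62. The 4 with the smallest p were Itga8 (2.25-fold, adjusted p = 0.000176) and Itga9 (1.69-fold), integrin chains that bind tenascin-C and osteopontin, Itga5 (2.24-fold), the fibronectin receptor chain, and Stab1 (2.12-fold), a scavenger receptor for Sparc. Cd44, an osteopontin and hyaluronan receptor, had a log2 fold change of -0.03 (SE 0.12), and Cd47 and Cd36, receptors of thrombospondin-1, were not called. Of the pair of other family relatives, Tgfbi, the closest relative of periostin, rose 1.34-fold (adjusted p = 0.0225) and Vtn, vitronectin, was not called.

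No gene of these 7 lists was called between the genotypes in either condition or for the interaction. Among the other cell type lists, all 5 endothelial markers (smallest p for Pecam1, Cdh5, Kdr and Tek, 1.97- to 2.49-fold) and all 7 neutrophil markers (smallest p for Cxcr2, S100a8, S100a9 and Csf3r, 2.84- to 6.16-fold) were called higher over both genotypes, as were 2 of 4 tendon and ligament markers (Col12a1, 4.46-fold, and Tnmd, 1.88-fold), 1 of 5 of smooth muscle and pericytes (Rgs5) and 1 of 4 of platelets (Ppbp). The platelet marker Pf4 had a log2 fold change of 0.54 (SE 0.30) and was not called. Of the epithelial markers, 1 of 7 was called lower (Krt76), and 0 of 6 skeletal muscle and 0 of 4 mucous gland markers were called. The mucous gland sum ran from 64.2 to 33147 CPM among the WT naive libraries.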

How the data were processed

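Bulk RNA-seq of gingival tissue was available for 12 libraries, 3 in each of 4 groups assigned by their labels. Raw read counts per Ensembl gene, as the authors deposited them, were used, with no normalization. The name of the deposited table gives HTSeq as the counter, and the submitters' processing notes name HTSeq 0.10.0 and FastQC 0.10.1. The study's methods name STAR, GRCm38 and, as the counter, featureCounts by strand. All 12 columns of counts were used. Symbols came from GENCODE M21 (21939 of 21965 genes matched).

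Counts were fitted in R 4.3.3 with edgeR 4.0.16 in 1 quasi-likelihood model of all 12 libraries, with 1 mean per group, TMM normalization (factors 0.918 to 1.08) and filterByExpr, which left 15046 genes. Adjustment was by Benjamini and Hochberg over these genes, and genes under 0.05 are named as called. CPM is TMM-scaled. DESeq2 1.42.0, other scalings and filters, a replicate block, fits of fewer libraries and each library left out in turn were alternatives. The biological coefficient of variation was 0.240. P-values of this fit set a difference against a spread estimated jointly over the 12 libraries, with 3 mice per group. They do not use the spread of each group by itself.

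The members, the 20 lists of related genes and cell type markers and the tests were chosen with earlier results of these data known. In each list up to 4 genes with the smallest p over both genotypes were named where genes were called, with any gene called between genotypes. Other list genes in the text were chosen after their values were seen. Promoters came from RefSeq (GRCm38.p6), taking for each gene the window nearest to the GENCODE gene start. The Sparc window starts 3103 bases from it.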

Additional observations from a re-analysis of the deposited data

How the results depend on the processing

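Ligated against naive over both genotypes, the count of the 9 genes called stayed between 8 and 9 under every setting that kept all libraries, with the lower value under the replicate block, and between 6 (without CybbKO ligated replicate 1) and 9 with a library left out. All 9 kept their direction in the 3 ligature comparisons under every alternative. In WT gingiva the count of members went from 3 to 5 with DESeq2 and to 5 with scaling by library size only, and to between 0 and 2 with a library left out. In CybbKO gingiva it ran from 5 (without CybbKO naive replicate 2) to 9 (without CybbKO ligated replicate 2).

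Over all genes, the 481 calls in WT gingiva became 1372 with DESeq2, 271 with the replicate block and between 27 and 737 with a library left out. The 1954 calls in CybbKO gingiva ran from 837 to 2949 and the 3668 over both genotypes from 2531 to 4694 with a library left out. Each of the 6 libraries moved the count within its genotype by over 1.5 times. CybbKO against WT called 18 genes with DESeq2 and 0 with only the libraries compared in ligated gingiva (1 in the joint fit, 0 to 2 with a library left out), and 2 with DESeq2 in naive gingiva. The interaction called 0 to 1 genes with a library left out. In these comparisons 0 members were called in every run. With scaling by library size only, the median log2 fold change of all genes in ligated against naive gingiva moved from -0.03 to between 0.05 and 0.08, and the calls over both genotypes became 2628 higher and 726 lower from 2215 and 1453.

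In ligated gingiva the genotype estimate changed sign with a library left out for Postn (-0.058 to 0.54), Tnc (-0.12 to 0.28), Tnn (-0.15 to 0.52), Spp1 (-0.66 to 1.42), Fn1 (-0.028 to 0.50) and Aspn (-0.30 to 0.48), and for Aspn with the replicate block (-0.0096). The interaction of Spp1 ran from -0.055 to 2.03. All naive estimates stayed below 0.

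The shared replicate numbers did not pair the libraries: 2 of 18 same-numbered pairs had a correlation over 0.1, and 2 of 12 libraries correlated best with their own number. With the replicate block, 2, 7 and 8 members were called in WT, CybbKO and both genotypes. Depth limits Kera, Epyc, Tnr, Ocstamp, Dcstamp, Atp6v0d2, Dmp1, Comp, the neutrophil marker Ly6g and the tooth markers Ambn and Amtn, each under 1 CPM in every naive library.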
